A study of Mus musculus with 18 samples.

Results

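The 8 genes described here are Hnf4a, Foxa1, Foxa2, Foxa3, Onecut1, Cebpa, Prox1, and Tbx3. They encode transcription factors that hepatocytes use to set and keep their identity. The data are the open chromatin regions listed around these genes from preparations of isolated liver macrophages (LMs, labelled KC for Kupffer cells). A region belongs to a gene when its midpoint falls in the gene body or within 20 kb of either end, in the mm9 build with the GENCODE vM1 gene models. By this rule the 8 genes hold 59 of the 69499 regions in the list, and they are 8 of the 22367 protein-coding genes that were counted in the same way.

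The assay was fast-ATAC-Seq, in which a transposase cuts DNA where it is accessible and adds sequencing adapters there, and each reaction used 50000 isolated LMs. The 18 libraries came from male C57BL/6J mice of 3 genotypes (Control, ReverbhDKO, and Reverb/ScaphTKO), with 3 replicates at zeitgeber time (ZT) 10 and 3 at ZT22, after 4 weeks of a diet high in fat and sucrose (D12492i). All of the mice carried loxP-flanked (fl/fl) alleles of Rev-erbα and Rev-erbβ, the TKO mice carried those of Scap as well, and at 8 weeks of age they received an adeno-associated virus (AAV) intravenously. The controls were given AAV-TBG-GFP and the knockouts AAV-TBG-CRE, and since the TBG promoter is active in hepatocytes, the genes were deleted in hepatocytes and not by design in the LMs studied here. How these LMs were separated from other liver cells is not given in the sources used here. The list that was analysed was deposited for the series as a whole and gives each region by its coordinates, with no read count or signal, and it does not say which libraries a region came from. The depth is therefore unknown, no value below has a spread between replicates, and neither genotypes nor times of day could be compared. All positions are from mm9, counted from 1.

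Hepatocyte transcription factors work as a network in which HNF4A, the FOXA proteins, HNF6 (the product of Onecut1), C/EBPα, and PROX1 bind at each other's promoters and enhancers. FOXA proteins are known as pioneer factors that can bind their sites in closed chromatin, and HNF4A is a nuclear receptor without which hepatocytes lose most of their specialized functions. Macrophages rest on another set of factors, led by PU.1, although C/EBPα is also used in the myeloid lineage from which macrophages arise, and Prox1 is also known for its role in lymphatic endothelium.

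Every one of the 8 genes had open chromatin at an annotated start site of its own (a region at most 1000 bp away), where the share over all protein-coding genes was 57.1%. A region more than 1000 bp from every start site was present at 7 of the 8 genes, with Tbx3 as the exception, against 66.5% of all genes, and at least 1 region of any kind was present in the windows of 78.7% of all genes. The windows of the 8 genes covered 499.398 kb in total, of which open regions took up 11083 bp or 2.22%. Per 100 kb of window the genes held a median of 12.1 regions, and the median over all protein-coding genes was 4.74. Foxa3 held 21.9 regions per 100 kb (percentile 97.7 among all protein-coding genes), Cebpa 21.1 (percentile 97.3), Foxa2 15.9 (percentile 91.2), and Hnf4a 13.2 (percentile 85.5). Foxa1 followed with 11.0 (percentile 79.2), Onecut1 with 8.84 (percentile 71.5), Prox1 with 5.62 (percentile 55.3), and Tbx3 with 3.70 (percentile 42.5). With this window, 7 of the 8 genes were above the median of all genes and Tbx3 was below it, a split that changed in other settings. These densities have no replicate error, so the order of neighbors such as Foxa3 and Cebpa, or Hnf4a and Foxa1, cannot be set against a spread.

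**Figure D1:**
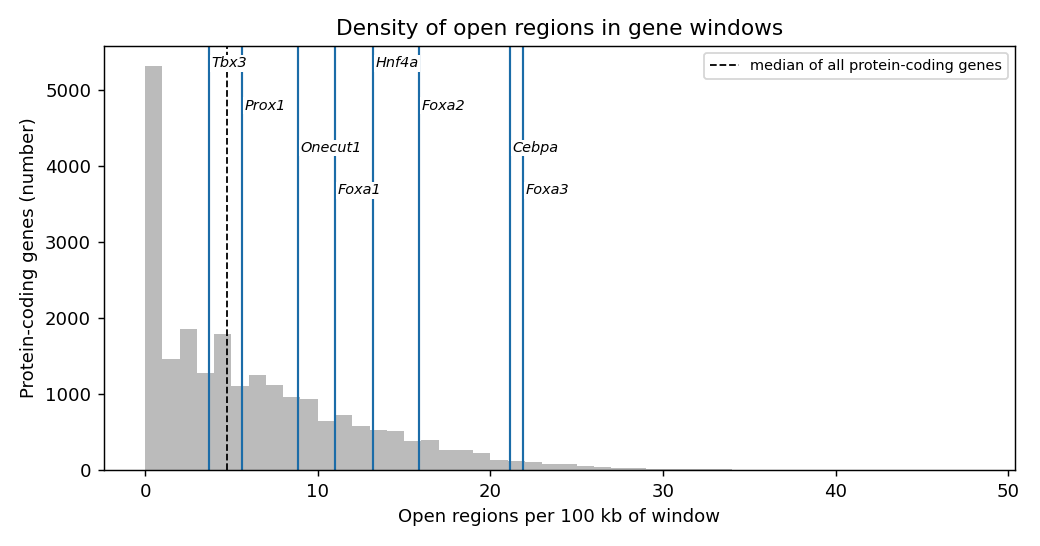
Open regions per 100 kb of window (gene body and 20 kb at either end) for the 8 hepatocyte transcription factor genes (labelled lines), over a histogram of the number of protein-coding genes at each density (gray, 22367 genes, dashed line at their median). Foxa3 and Cebpa sit near the top with 21.9 and 21.1, and Tbx3, with 3.70, is the 1 gene below the median of 4.74. The Foxa3 value includes regions near start sites of neighboring genes.

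Hnf4a (ENSMUSG00000017950.9, plus strand, chr2:163332544-163398646) encodes the nuclear receptor HNF4A and held 14 regions, more than any of the other 7 genes, in a window of 106.103 kb. It is known to have an upstream promoter, P2, and a downstream promoter, P1, of which P1 is the one used in adult hepatocytes. The annotation does not carry these names, but it places 7 start sites in the gene, and 3 of them had a region within 1000 bp. The start sites at 163372923 and 163372924, which lie 40379 and 40380 bp past the first base of the gene, where P1 is known to be, were both inside the region chr2:163372804-163373002 (199 bp). The 2 start sites farthest upstream, at 163332544 and 163332674, had no region nearby, as the nearest was 19059 and 18929 bp away. The start sites inside a region were thus those of the transcripts Hnf4a-001 and Hnf4a-201, and a noncoding transcript, Hnf4a-003, starts 251 bp before the same region. This region had a GC content of 65.3% and a ratio of observed to expected CpG of 0.148, the lowest among the regions over the start sites of the 8 genes. Of the other regions of Hnf4a, 8 were in introns and 5 lay 1635 to 14835 bp past the end of the gene. A stretch of 39.1 kb of the window, or 36.8% of it, had no region. The widest region of all 59, chr2:163365413-163365764 (352 bp), was in an intron, 100 bp from its neighbor of 151 bp. The plus strand is given here for the 119 bases of the P1 region that precede the start sites (chr2:163372804-163372922) and for the central 300 bases of the widest region (chr2:163365439-163365738), because these are the open start and the largest open stretch of the gene.
Hnf4a before the covered start sites: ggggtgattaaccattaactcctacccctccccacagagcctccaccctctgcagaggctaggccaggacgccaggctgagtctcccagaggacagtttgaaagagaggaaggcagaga
Hnf4a widest region: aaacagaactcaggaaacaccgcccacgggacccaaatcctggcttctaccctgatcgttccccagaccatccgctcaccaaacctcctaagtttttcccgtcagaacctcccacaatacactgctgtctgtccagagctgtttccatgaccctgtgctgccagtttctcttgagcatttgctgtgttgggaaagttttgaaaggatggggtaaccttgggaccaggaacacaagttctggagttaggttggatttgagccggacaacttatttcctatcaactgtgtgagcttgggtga

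Short sequence patterns were searched in the regions on both strands, and 3 regions of Hnf4a held one of them. An intron region at chr2:163366486-163366693 had a pair of matches to the C/EBP pattern TTGCNNAA, and another at chr2:163390405-163390555 had 1. The region chr2:163412643-163412873, which is 14112 bp past the end of the gene by its midpoint, had a match to the FOXA pattern TGTTTAC and a match to the AP-1 pattern TGANTCA. The regions with the C/EBP pair and the FOXA match are printed on the plus strand to show how the matches, in capitals, are spaced. A match on the minus strand reads as the reverse complement of the pattern.
Hnf4a C/EBP region: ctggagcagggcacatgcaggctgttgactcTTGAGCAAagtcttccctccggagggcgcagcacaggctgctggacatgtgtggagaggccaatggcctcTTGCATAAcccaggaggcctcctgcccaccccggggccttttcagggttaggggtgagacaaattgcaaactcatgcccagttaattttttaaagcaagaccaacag
Hnf4a FOXA and AP-1 region: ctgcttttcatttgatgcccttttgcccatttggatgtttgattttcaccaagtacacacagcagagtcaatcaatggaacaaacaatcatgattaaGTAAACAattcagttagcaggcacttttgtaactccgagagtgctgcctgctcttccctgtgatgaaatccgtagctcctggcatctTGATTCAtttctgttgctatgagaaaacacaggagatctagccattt

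The Foxa genes encode 3 forkhead proteins with closely similar DNA-binding domains. Foxa1 (ENSMUSG00000035451.6, minus strand, chr12:58641618-58647108) held 5 regions, of which 4 were in the gene body and 1 was 1165 bp past its end. The region chr12:58646996-58647168 covered its single annotated start site and had a CpG ratio of 1.03, the highest among the regions over the start sites of the 8 genes. The intron region chr12:58644272-58644510, which also overlaps an exon and is the widest of this gene (239 bp), had a C/EBP match. Foxa2 (ENSMUSG00000037025.5, minus strand, chr2:147868613-147872705), which is also needed for the development of endoderm organs such as pancreas and lung, held 7 regions. Of these, 4 were within 1000 bp of its start sites, and all 4 annotated start sites had a region within 134 bp. The region chr2:147871558-147871708 covered the start of Foxa2-002, and the region chr2:147872712-147872862 lay 7 bp upstream of the first base of the gene. A pair of regions of 151 bp, 1062 bp apart, lay 17159 and 18372 bp past the end of Foxa2, inside the noncoding gene 9030622O22Rik, and the nearer of them, chr2:147851379-147851529, had a C/EBP match. The widest regions of Foxa1 and Foxa2 that are clear of exons, chr12:58640339-58640567 and chr2:147872024-147872257, are printed as on the plus strand, and neither held a match. They show a contrast in base composition, with a GC content of 43.2% past the end of Foxa1 and of 65.4% in the intron next to the Foxa2 start sites.
Foxa1 widest exon-free region: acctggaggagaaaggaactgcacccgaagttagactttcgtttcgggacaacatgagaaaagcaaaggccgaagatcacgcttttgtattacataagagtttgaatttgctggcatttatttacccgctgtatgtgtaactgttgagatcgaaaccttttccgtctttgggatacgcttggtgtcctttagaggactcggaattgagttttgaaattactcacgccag
Foxa2 widest exon-free region: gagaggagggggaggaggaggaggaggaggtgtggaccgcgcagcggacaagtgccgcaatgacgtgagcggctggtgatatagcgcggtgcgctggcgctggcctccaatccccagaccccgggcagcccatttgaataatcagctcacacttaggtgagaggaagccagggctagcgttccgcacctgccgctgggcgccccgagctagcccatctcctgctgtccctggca

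Foxa3 (ENSMUSG00000040891.5, minus strand, chr7:19598631-19608887) is the Foxa gene with a known part in glucose metabolism of the adult liver, and with 11 regions in a window of 50.257 kb it had the highest density of the 8 genes. It lies in a gene-dense stretch, and its own share of these regions is smaller. The start sites of Foxa3 and Sympk, which encodes a protein of messenger RNA 3′ end processing, face away from each other and are 839 bp apart, so the 3 regions within 1000 bp of the Foxa3 start were also within 1000 bp of a Sympk start. Another 3 regions lay at the start of Irf2bp1, which encodes a transcriptional repressor, past the other end of Foxa3. Without the regions near start sites of other genes Foxa3 held 5, or 9.95 per 100 kb (percentile 88.7). When each region was given to the protein-coding gene with the nearest start site it held 3, or 5.97 per 100 kb (percentile 82.1). Cebpa kept 21.1 per 100 kb in both settings. The region chr7:19608763-19608913 covered the Foxa3 start, and the next one, chr7:19608921-19609195, was 7 bp away. The single intron region, chr7:19601528-19601678, had a match to the HNF6 pattern ATCAATA, which 1.27% of regions of like width (within 10 bp) held. The region chr7:19592480-19592630, which is 6076 bp past the end of the gene, had a match to the HNF1 pattern GTTAATNAT, which 0.535% of regions of like width held. The exon-free region beside the start and these 2 regions are printed as on the plus strand, with matches in capitals, since they show the promoter side of the gene and the only HNF6 and HNF1 matches found in the 59 regions.
Foxa3 region beside the start: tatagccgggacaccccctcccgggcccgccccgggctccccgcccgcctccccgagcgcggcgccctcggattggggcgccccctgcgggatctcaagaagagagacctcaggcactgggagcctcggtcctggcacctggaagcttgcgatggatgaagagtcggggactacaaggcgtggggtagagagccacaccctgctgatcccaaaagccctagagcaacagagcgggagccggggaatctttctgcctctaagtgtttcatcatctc
Foxa3 HNF6 region: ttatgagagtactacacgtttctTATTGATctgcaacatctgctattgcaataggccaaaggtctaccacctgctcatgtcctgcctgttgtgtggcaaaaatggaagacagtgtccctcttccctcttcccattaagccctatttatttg
Foxa3 HNF1 region: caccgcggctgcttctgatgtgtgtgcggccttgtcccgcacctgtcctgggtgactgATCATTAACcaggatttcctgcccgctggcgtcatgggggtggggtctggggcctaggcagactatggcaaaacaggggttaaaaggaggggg

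Onecut1 (ENSMUSG00000043013.7, plus strand, chr9:74709728-74737591) encodes HNF6, a factor of hepatocytes and bile duct cells, and held 6 regions. The widest, chr9:74709520-74709808 (289 bp), covered its upstream start site. A region of nearly the same width, chr9:74714475-74714760 (286 bp), lay 184 bp from the start of the noncoding transcript Onecut1-002 in an intron. The other intron region was 1426 bp from that start, and the next 28.9 kb of the window held no region. Past the end of the gene 3 regions lay 7229, 15266, and 17436 bp away, and the nearest of them, chr9:74744721-74744919, had a C/EBP match. The exon-free intron region is printed as on the plus strand as the widest of the gene outside exons, and it held no match.
Onecut1 intron region: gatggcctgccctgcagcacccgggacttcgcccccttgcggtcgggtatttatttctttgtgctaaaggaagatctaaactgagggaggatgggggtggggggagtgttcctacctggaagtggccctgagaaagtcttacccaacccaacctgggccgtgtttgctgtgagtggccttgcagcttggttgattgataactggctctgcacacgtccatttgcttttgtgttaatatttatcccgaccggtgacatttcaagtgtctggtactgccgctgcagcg

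Cebpa (ENSMUSG00000034957.9, plus strand, chr7:35904312-35906945) encodes C/EBPα, which hepatocytes use for metabolic genes and which myeloid progenitors also need. It is a short gene without introns, and none of its 9 regions had a midpoint in the gene body. The regions chr7:35904146-35904319, over the start site, and chr7:35903346-35903592, 720 bp before it, were within 1000 bp, and a further region lay 2495 bp upstream. Past the end of the gene 6 regions followed each other at 910, 1659.5, 3059, 6098, 7532.5, and 8634.5 bp. The region at 6098 bp, chr7:35912968-35913118, was the 1 region of the 59 with both a C/EBP and a FOXA match. In regions of like width the C/EBP pattern was present in 8.44% and the FOXA pattern in 2.86%. This region is printed for its 2 matches and its neighbor chr7:35914347-35914608 (262 bp) as the widest of the gene, both as on the plus strand.
Cebpa C/EBP and FOXA region: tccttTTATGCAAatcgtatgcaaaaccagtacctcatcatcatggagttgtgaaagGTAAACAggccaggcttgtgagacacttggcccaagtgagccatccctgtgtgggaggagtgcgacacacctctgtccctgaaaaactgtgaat
Cebpa widest region: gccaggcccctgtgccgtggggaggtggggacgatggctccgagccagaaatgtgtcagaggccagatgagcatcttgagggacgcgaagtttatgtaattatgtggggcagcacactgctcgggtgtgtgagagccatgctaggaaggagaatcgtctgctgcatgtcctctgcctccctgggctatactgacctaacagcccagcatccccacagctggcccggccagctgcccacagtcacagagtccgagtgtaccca

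Prox1 (ENSMUSG00000010175.6, minus strand, chr1:191945660-191994559) encodes a homeodomain protein of hepatocytes and lymphatic endothelium and held 5 regions in a window of 88.9 kb. The region chr1:191994520-191994718 covered its start site and was also within 1000 bp of the start of the lincRNA gene Gm17566. No further region occurred for 45.5 kb, or 51.1% of the window, until an intron region at chr1:191948901-191949051, which had a C/EBP match. The remaining 3 regions stood together 14496 to 14929 bp past the end of the gene, with gaps of 16 and 98 bp, and they were the regions farthest from their own start site among the 59, at up to 63753 bp. None of the 5 was as wide as 200 bp. The middle region of the group had another C/EBP match, and the widest, chr1:191931072-191931256, is printed as on the plus strand because the group is the main open stretch of Prox1 away from its start.
Prox1 downstream region: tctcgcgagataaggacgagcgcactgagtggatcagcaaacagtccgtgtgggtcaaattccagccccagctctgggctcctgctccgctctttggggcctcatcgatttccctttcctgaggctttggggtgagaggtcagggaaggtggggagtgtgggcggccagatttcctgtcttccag

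Tbx3 (ENSMUSG00000018604.11, plus strand, chr5:120120678-120134733) encodes a T-box repressor that acts in liver progenitors and in many developing organs. It held 2 regions, both within 1000 bp of a start site, and no region lay farther away in its window. The region chr5:120120684-120121014 (331 bp) covered the start of Tbx3-002 and was 6 and 13 bp from the neighboring starts at 120120678 and 120121027, and it was also within 1000 bp of the start of the noncoding gene Gm2301. The 3 start sites inside the gene, 4776 to 10082 bp past its first base, had no region closer than 4440 bp. The nearest region outside the window was 95361.5 bp from the gene, while for the other 7 genes that distance was 21816 to 30025 bp. The upstream region chr5:120119867-120120017 is printed as on the plus strand as the only one clear of exons, and it held no match.
Tbx3 upstream region: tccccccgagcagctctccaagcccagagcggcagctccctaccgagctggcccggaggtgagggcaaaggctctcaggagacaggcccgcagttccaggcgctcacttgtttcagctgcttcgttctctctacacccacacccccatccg

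**Figure D2:**
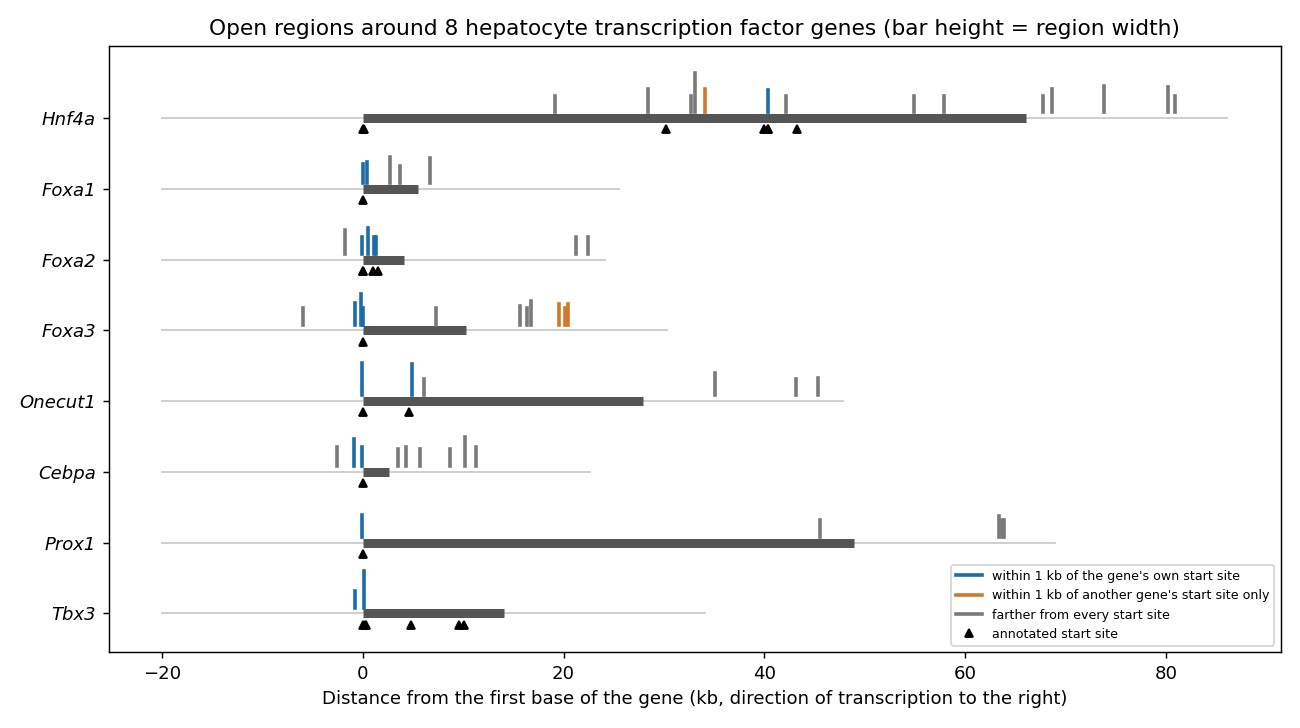
Positions of the 59 open regions in the windows of the 8 genes, as the distance from the first base of the gene in the direction of transcription (kb), with the gene body as a thick line, start sites as triangles, and the height of a region's line showing its width. Hnf4a shows its open start far inside the gene (40379 bp from the first base) and none at its first base, Cebpa a series of 6 regions past its end, and Tbx3 a pair of regions at its start with none farther away.

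Of the 59 regions, 17 (28.8%) were within 1000 bp of a start site of their own gene, 4 (6.78%) were at the start of another gene alone, and 38 (64.4%) were farther than this from every start site. These 38 distal regions lay at a median of 11362 bp from the start site of their gene and from 1005 to 63753 bp. By the midpoint, 26 regions (44.1%) were past the end of the gene, 16 (27.1%) in introns, 11 (18.6%) upstream, and 6 (10.2%) in exons. More than 1 region at the start was found for Foxa1, Foxa2, Foxa3, Onecut1, Cebpa, and Tbx3, or 6 of the 8 genes, where 27.7% of all protein-coding genes had more than 1. The start regions of Foxa1, Foxa2, and Foxa3 were only 7 to 454 bp apart, and those of Foxa3 were also near the Sympk start. They merge when regions at most 500 bp apart are joined, and the share over all genes was not recounted in that way. Counted over start sites, 16 of 23 (69.6%) had a region within 1000 bp and 9 (39.1%) were inside a region, against 51.5% and 25.3% of the start sites of all protein-coding genes. The 7 start sites without a region belonged to Hnf4a (4) and Tbx3 (3), which are also the genes with the most annotated start sites. For the other genes with a start site in one of the windows, most of them noncoding, no share over all such genes was counted. Among them, 5 of 11 had a region within 1000 bp of that start site. R3hdml and Ttc6, the protein-coding neighbors of Hnf4a and Foxa1, had none closer than 33549 and 17932 bp.

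The regions of the 8 genes had a median width of 172 bp and a range of 151 to 352 bp, beside a median of 160 bp for the 69362 regions on assembled chromosomes. The commonest width, 151 bp, was that of 27 of them, and 32 of 59 (54.2%, 95% Wilson interval 41.7 to 66.3, which covers counting error only) were wider, beside 53.5% of all regions. Their GC content had a median of 56.5% and a range of 41.1% to 73.4%, where the median of all regions was 52.7%. Regions near a start site had a median of 63.2% and distal ones of 52.3%, and over the whole list these medians were 61.3% and 50.5%. CpG-rich sequence, taken as a CpG ratio of at least 0.6 with a GC content over 50%, was found in 12 of 21 regions near a start site (57.1%, beside 57.4% of all such regions). It was in 4 of 38 distal ones (10.5%, Wilson interval 4.17 to 24.1, beside 4.26%, which is inside the interval). The Hnf4a start region stood apart from the other 7 in this respect. Their CpG ratios were 0.464 (Foxa3) to 1.03 (Foxa1), while 7.33% of all regions near a start site had a ratio below the 0.148 of Hnf4a.

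**Figure D3:**
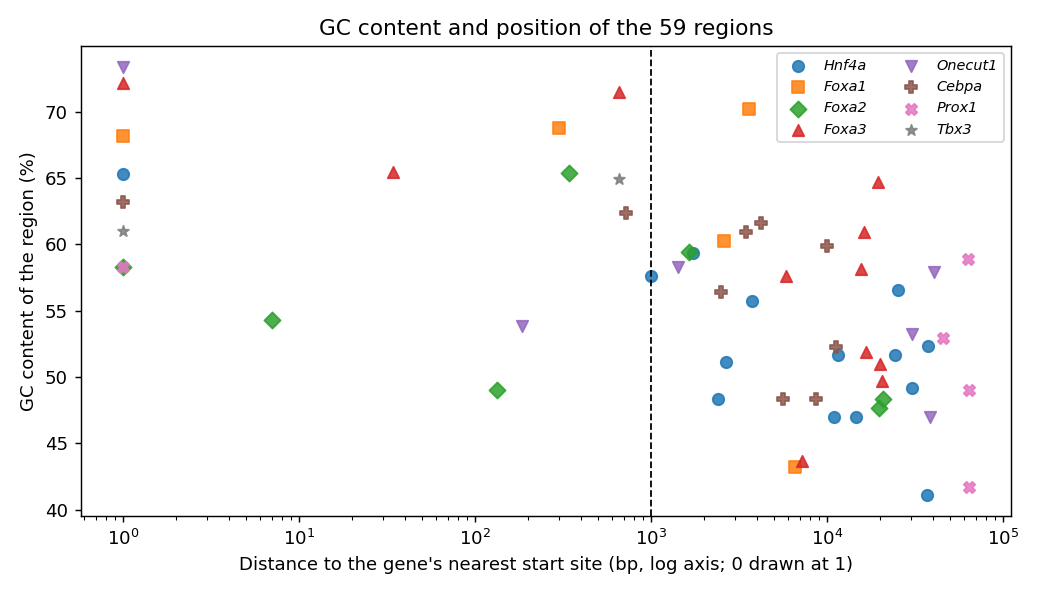
GC content (%) of the 59 regions against the distance to the nearest start site of their own gene (bp, log axis, with 0 drawn at 1 and a dashed line at 1000 bp), with a symbol for each gene. GC content runs from 41.1% to 73.4%, and the lowest values are those of regions more than 1000 bp from a start site.

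Of the 12 patterns searched, 5 were found in the 59 regions, with 14 matches in 11 regions (18.6%, Wilson interval 10.7 to 30.4, beside 32.4% of all regions). The share of all regions is above this interval, but the interval covers counting error only and treats neighboring regions of a gene as independent. This pooled share was added to the planned shares of single patterns and was not counted in wider windows. The C/EBP pattern gave 9 of the 14 matches, and it was also the most frequent pattern over all regions. Factors of this family are made in hepatocytes and in macrophages alike. The C/EBP pattern was present in 8 of 59 regions (13.6%, Wilson interval 7.03 to 24.5, beside 10.4% of all regions), at Hnf4a, Foxa1, Foxa2, Onecut1, Cebpa, and Prox1. Of these 8 regions 7 were distal (18.4% of distal regions, interval 9.22 to 33.4, beside 12.0%, which is inside the interval). The FOXA pattern was in 2 regions (3.39%, interval 0.935 to 11.5, beside 3.65%), and the HNF6 and HNF1 patterns in 1 each (1.69%, beside 1.49% and 0.781%). AP-1, the pattern of the FOS and JUN factors, was in 1 region (1.69%, interval 0.300 to 9.00, beside 8.30%), so the share of all regions was inside the interval. The PU.1 pattern GAGGAAGT was in none, beside 3.82% of all regions, and neither was the E-box CACGTG that clock and SREBP factors can use, beside 6.08%. The other 5 patterns without a match were HNF4 (CAAAGTCCA), a nuclear receptor direct repeat (GGTCAAAGG), the T-box (AGGTGTGA), the RORE at which REV-ERB binds (ANTAGGTCA), and the SRE (TCACNCCAC), each in under 1% of all regions. The intervals for 0 of 59 regions reach up to 6.11%, which is above the share of all regions for each of these 7 patterns, and no match means only that these letters are not in these windows. The HNF4, direct repeat, and RORE patterns share letters and can overlap, and TGANTCA and CACGTG read the same on both strands. In windows of 500 bp centered on the regions, the C/EBP pattern was in 22.0% of the 59, beside 21.3% of all, the FOXA pattern in 10.2%, beside 7.85%, and the HNF6 pattern in 8.47% (interval 3.67 to 18.4), beside 3.76%. The AP-1 pattern was in 13.6%, beside 16.8%, the E-box in 10.2%, beside 11.5%, and the PU.1 pattern in 5.08%, beside 6.73%. The SRE was in 3.39%, beside 2.25%, the HNF1 and T-box patterns in 1.69% each, beside 1.48% and 1.99%, and the HNF4, direct repeat, and RORE patterns again in none.

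**Figure D4:**
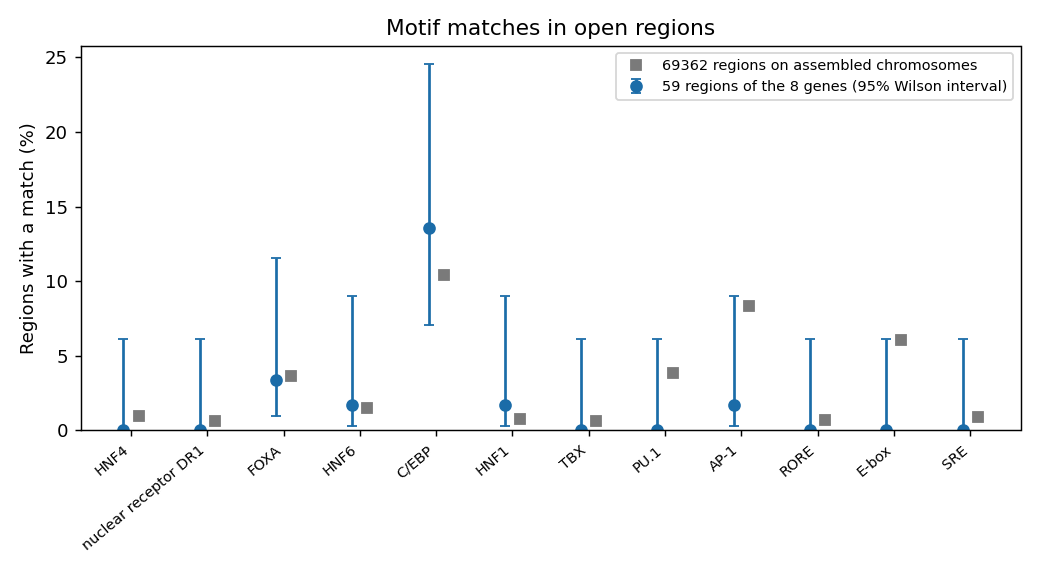
Share of regions (%) that held each of the 12 patterns, for the 59 regions of the 8 genes (circles, with 95% Wilson intervals) and for all regions on assembled chromosomes (squares). The C/EBP pattern was the most frequent both at the 8 genes (13.6%) and over all regions (10.4%). For every pattern the share of all regions lay inside the interval.

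The 8 genes were set beside lists of other genes, as counts with no test. Of 22 other transcription factor genes of the liver, 21 had a region at a start site (57.1% of all protein-coding genes did), and their median was 11.3 regions per 100 kb. Klf15, a factor of fasting metabolism, had the highest density, 22.8, and Gata6, an endoderm factor, the lowest, 4.10. Of 15 relatives from the same families that are used mainly outside hepatocytes, 3 had a region at a start site, and the median density was 2.26. Foxb1, Foxd3, Tbx18, Tbr1, and T had no region in the window, and Cebpe, a factor of granulocytes, had the highest density of the relatives with 9.57, though no region at its start. Hnf4g, the closest relative of Hnf4a, held 1 region in a window of 191.746 kb, and that region was at its start site. Hnf4a held 14 in 106.103 kb. Of 15 transcription factor genes of neurons and muscle, 4 had a region at a start site, with a median density of 2.32. Among those at 0 were the muscle factor genes Myf5 and Myf6. Lhx2, which is also among the stellate cell genes listed below, had the highest density with 7.10.

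Marker genes were counted as well, as a description and not a test of the cell label, since the lists were chosen with earlier results known. Of 14 macrophage transcription factor genes, 13 had a region at a start site, with a median of 11.9 regions per 100 kb, from 1.90 for Tcfec to 28.4 for Id3. The PU.1 gene, listed as Sfpi1, held 9 regions, or 12.3 per 100 kb. Of 17 genes typical of Kupffer cells, 11 had a region at a start site, among them Clec4f, Timd4, and Cd5l, and Vsig4, Cd163, Marco, Folr2, Csf1r, and Lyz2 had none there. This share, 64.7%, is near the 57.1% of all protein-coding genes, and is no result about these genes. The median was 9.25, from 1.16 for Vsig4 to 28.6 for Cd68. Of the 12 regions of Cd68, 1 was at its own start and 2 were distal, so most lay at start sites of other genes. Genes of hepatocyte plasma proteins had a region at a start site in 18 of 19, with a median of 11.6, from 2.53 for Apob to 21.5 for Apoa1. Genes of liver endothelial cells had one in 16 of 18 (median 8.12, from 0 for Emcn to 35.8 for Egfl7), genes of bile duct cells in 3 of 9 (median 1.81, from 0, as for Krt19, to 24.8 for Muc1), and genes of stellate cells in 5 of 15 (median 2.61, with 6 at 0 and Nes highest at 8.10). Of the 11 regions of Muc1, 2 were at its own start and 2 were distal, so most of these also lay at start sites of other genes. Open regions at hepatocyte transcription factor genes thus stood in the same list as open regions at genes of macrophage transcription factors, plasma proteins, and liver endothelial cells. In a list without libraries, chromatin that is open in the LMs and chromatin of other cells in the preparations cannot be told apart, nor can a region open in all libraries from one open in a few, and the part of other cell types in these regions was not tested.

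**Figure D5:**
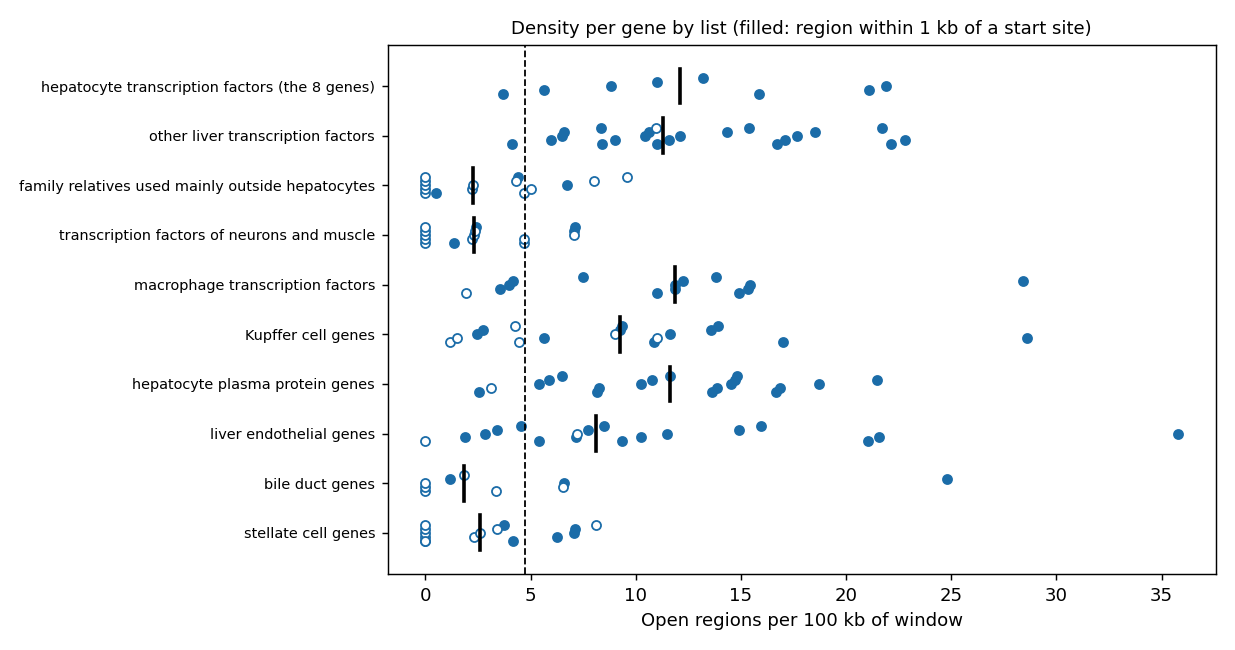
Open regions per 100 kb of window for each gene of the 8 hepatocyte transcription factor genes and of 9 other lists, with filled points for genes with a region at a start site, open points for genes without, the median of each list as a bar, and the median of all protein-coding genes (4.74) as a dashed line. Medians of the 8 genes (12.1), macrophage transcription factors (11.9), plasma protein genes (11.6), and other liver transcription factors (11.3) lie above that line. The medians of Kupffer cell genes (9.25) and liver endothelial genes (8.12) also lie above it. Those of family relatives (2.26), neuron and muscle factors (2.32), bile duct genes (1.81), and stellate cell genes (2.61) lie below it.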

How the data were processed

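The authors used the Kundaje laboratory's ATAC-Seq pipeline with adapter trimming and Bowtie alignment to mm9, and called peaks after merging the alignments of biological replicates. Bowtie, HOMER, and mm9 are also named in the submitters' processing notes. The peak caller and threshold, and how the peaks became 1 list, are not given in the sources used here. The deposited list holds only coordinates, with starts counted from 0, which were changed to count from 1. It has no counts, so no model was fitted and no p-value is given, and comparisons are descriptions beside all protein-coding genes or all regions.

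Regions were assigned by midpoint to GENCODE vM1 genes of NCBIM37, the assembly of mm9, with 20 kb at either end, and 137 regions outside the assembled chromosomes were left out of shares. A start site was taken as open with a region within 1000 bp. Sequences were read from NCBIM37 by coordinates. Patterns were matched exactly on both strands. Shares have 95% Wilson intervals. Of 147 entries in the 9 lists 144 were found, 3 of them under older symbols. Cebpd, Trf, and Sox4, which matched no or more than 1 gene model, were left out. Lhx2 was listed both with the neuron and muscle factors and with the stellate cell genes.

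Besides the 8 genes, those named are genes with a start site in their windows, the genes with the highest and lowest density in each list, and others named after their values were seen (Hnf4g, Sfpi1, Nr2f2, Kupffer cell genes, and genes at 0). Sequences are the widest region of each gene clear of exons, examples with a match, and the Hnf4a region before its start sites, which was chosen after its position was seen. The members and lists were chosen with earlier results of these data known. The steps were tested on simulated data first. Python 3.11.15, NumPy 2.4.6, pandas 2.3.3, SciPy 1.17.1, and matplotlib 3.10.9 were used.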

Additional observations from a re-analysis of the deposited data

How the results depend on the processing

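The number of regions assigned to the 8 genes depends on the window and on the width asked of a region. From 59 it moved to 22 with the gene body alone, 38 with 5 kb at each end, 95 with 50 kb, and 18 with only regions of at least 200 bp. In that last setting the median density was 4.47 regions per 100 kb (1.45 over all protein-coding genes), and 5 of the 8 genes had a region at a start site (34.8% of all genes). With the gene body alone, which left 22 regions, the shares with the FOXA, HNF1, and AP-1 patterns were 0. No share over all gene bodies was counted beside these, so they are no result about the 8 genes. In windows of 500 bp the AP-1 share was 13.6% and the E-box share 10.2%. The other 45 of 56 alternative values kept counts and densities of like size, or shares inside the first Wilson interval. Taking the first base of a gene as its start left 7 of 8 genes open, without Hnf4a (53.5% of all genes). Joining regions at most 500 bp apart left 47, with a median of 8.96 per 100 kb (4.14 over all genes). The genes below the median of all genes also changed with the setting. Prox1 fell below it with 5 kb (percentile 42.2), 50 kb (49.7), joined regions (44.4), and regions of at least 200 bp (19.4). Cebpa did so with the gene body alone (23.2). Tbx3 rose above it with the gene body (71.0), 5 kb (65.8), regions of at least 200 bp (56.8), and nearest-start assignment (66.0). No paired analysis was possible because no library has values of its own. Without read counts, the depth at which a region could be called is unknown, and a gene without a region need not be closed.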

Other observations

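With 50 kb at each end Hnf4a held 24 regions, Cebpa 19, Foxa3 15, Onecut1 12, Foxa2 10, Prox1 7, and Foxa1 6, whereas Tbx3 held 2, and the percentile of Tbx3 among all protein-coding genes was then 26.5 and that of Cebpa 97.8. Within 5 kb, Cebpa held 6 regions, or 47.5 per 100 kb (percentile 99.8). Among the other liver transcription factor genes, Nr2f2, which encodes the orphan nuclear receptor COUP-TFII, was the 1 of 22 without a region at a start site, with 6 regions elsewhere in its window. Outside start sites the median density was 6.70 regions per 100 kb at the 8 genes, 8.17 at the other liver transcription factor genes, and 2.06 over all protein-coding genes.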
